A study of Homo sapiens with 2 samples.

Results

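Cyclins, the cyclin-dependent kinases (CDKs) they activate, and the inhibitors and activating phosphatases of these kinases were followed across 2 arrays of LNCaP, a human prostate carcinoma line that responds to androgen. Of 44 listed genes, 42 had at least 1 probe set that the platform annotation gives to that gene alone, with 107 such probe sets among 34880 and 42 genes among 17689 measured; CCNA1 and CDKN2C were not analysed here. The control cells were infected with lentivirus of empty pLKO.1 and the knockdown cells with lentivirus expressing a KDM4A hairpin (shKDM4A); KDM4A is a histone demethylase that acts on methylated lysines of histone H3. Both were harvested 3 days after infection. Each group had 1 array, 1 hairpin was named and an empty vector served as control, so no p-value, SD between cultures or left-out replicate can be given, and precision is limited by the number of arrays. The comparison asks how expression of these genes changes with less KDM4A.

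Cyclins are regulatory subunits whose binding switches on a CDK. D-type cyclins with CDK4 and CDK6 act in G1, E-type cyclins with CDK2 at the entry into S phase, A-type cyclins in S and G2, and B-type cyclins with CDK1 at entry into mitosis. INK4 inhibitors bind CDK4 and CDK6, whereas CIP/KIP inhibitors bind cyclin-CDK complexes more broadly. A separate branch of the family, including CDK7, CDK8, CDK9, CDK12, CDK13 and CDK19 with cyclins H, C, T and K, works on RNA polymerase II and the Mediator complex. In prostate epithelium, androgen signalling is a known driver of the G1 machinery.

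Every value is read as log2, the scale RMA works on, since the base is not stated. In each row the control and knockdown values sum to 0, because the deposited values are centred on the mean of the 2 arrays. A difference is knockdown minus control. The SD printed after ± covers the probe sets of 1 gene and says nothing of variation among cultures. A gene at least 2-fold apart has a mean difference of 1 or more in size, which is a rule of size and not a test. The 17689 genes had a median difference of 0.020 and quartiles at -0.14 and 0.18. KDM4A, the target of the hairpin, read 0.45 and 0.73 on its 2 probe sets in the control array and -0.45 and -0.73 in the knockdown array, a 2-probe-set mean difference of -1.18 ± 0.40 (SD). As a reading of RNA quality, the difference at the 3' end minus that at the 5' end was -0.12 for ACTB and -0.097 for GAPDH. Signal levels were lost in the centring, so the tissue label could not be checked against its markers. Of 7 luminal prostate markers 5 were analysed, and none was 2-fold apart, with differences from 0.076 to 0.41. Among them KLK2 lay at 0.39 ± 0.61 over 4 probe sets, the highest of which read 1.30. None of the 9 analysed markers of basal cells (2 of 3), fibroblasts (3 of 4), leukocytes (1 of 4) and the embryonic kidney line used for packaging virus (3 of 3) was 2-fold apart either. The fibroblast collagens COL1A1 and COL3A1 lay highest among these, at 0.73 ± 0.76 over 4 probe sets and 0.63 ± 0.68 over 3, and their part in the results below was not tested.

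Of the 42 genes, 5 were at least 2-fold lower in the knockdown (11.9%) and none was 2-fold higher, against 1.44% and 1.16% of all genes measured. The list was chosen with earlier results of these data known, and it leaves out the inhibitor CDKN1A, which differed by 1.93. The 5 were the CDK phosphatase CDKN3, the S to M cyclins CCNA2, CCNB1 and CCNB2, and the transcriptional cyclin CCNT1. The nearest to the 2-fold rule inside it were CCNT1 (-1.12) and CCNB2 (-1.13), and the nearest outside it were CKS2 (-0.95) and, on the higher side, CDK8 (0.87). Over the 42 genes the median difference was -0.058, and 25 lay below 0 (59.5%), against 46.3% of all genes. In RNA from a whole culture, fewer cells in a phase and less RNA per cell cannot be told apart.

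**Figure D1:**
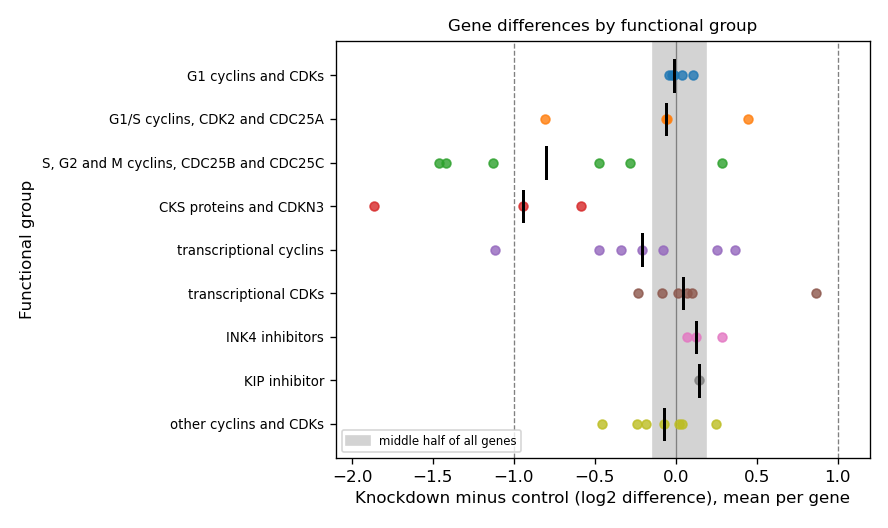
Difference per gene (horizontal axis, log2 difference, knockdown minus control) for 42 genes in 9 functional groups, each point 1 gene, the black bar the group median, the dashed lines 2-fold and the grey band the quartiles of all genes (-0.14 to 0.18). The medians of the S to M group (-0.80) and of the CKS and CDKN3 group (-0.95) lie below the band, and those of the G1 and G1/S groups (-0.014 and -0.058) lie inside it. With the median over the probe sets of each gene, the S to M median is -0.34.

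Cyclins and phosphatases of S phase, G2 and mitosis had a median of -0.80 over 6 genes, with 5 below 0. At least 2-fold lower were 3 of the 6, against 1.44% of all genes measured. With the median over the probe sets of each gene, CCNB2 fell to -0.10 and the group median to -0.34. CCNA2, the A-type cyclin of S phase and G2, read 0.73 in the control array and -0.73 in the knockdown array as the mean of 2 probe sets, a difference of -1.46 ± 0.26 (SD, n = 2 probe sets) or 2.75-fold. Its probe sets read -1.28 (203418_at) and -1.65 (213226_at), both past 2-fold, and the gene ranked 95 from the lowest of 17689. CCNB1, the cyclin that carries CDK1 into mitosis, read 0.71 in the control array and -0.71 in the knockdown array, a difference of -1.42 ± 0.094 (SD, n = 2 probe sets) or 2.67-fold. Its probe sets lay within 0.13 of each other, at -1.35 (214710_s_at) and -1.48 (228729_at).

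CCNB2, the second mitotic B-type cyclin, had a mean of -1.13 that rested on 1 of 3 probe sets. Probe set 202705_at differed by -3.23 (9.37-fold), the farthest from 0 of all 107 in the family, whereas 232764_at and 232768_at differed by -0.065 and -0.10. The SD over these 3 was 1.81. Without 202705_at the mean was -0.084, and the median over the 3 was -0.10, so the 2-fold call on CCNB2 ends either way. The centred values do not show which of these probe sets had signal above background.

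CDC25C and CDC25B, phosphatases that remove the inhibitory phosphates from CDKs before mitosis, lay lower by less than 2-fold. The probe sets of CDC25C read -0.10, -0.40 and -0.91, a mean of -0.47 ± 0.41 (SD, n = 3 probe sets). The only probe set of CDC25B read -0.29. CCNF, an F-box cyclin that marks proteins for destruction and pairs with no CDK, was the only member of the group above 0, with probe sets at 0.045 and 0.53 and a mean of 0.29 ± 0.34 (SD, n = 2 probe sets).

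The small CDK partners also lay lower, with all 3 genes below 0 and a median of -0.95. CDKN3, a phosphatase that removes the activating phosphate from CDKs, had the lowest mean of the family. It read 0.93 in the control array and -0.93 in the knockdown array, a difference of -1.86 ± 0.22 (SD, n = 2 probe sets) or 3.64-fold, with probe sets at -1.71 (1555758_a_at) and -2.02 (209714_s_at). It ranked 55 from the lowest of 17689 genes and was the only member past 3-fold, a size that 0.458% of all genes reached on the lower side. At 1.5-fold the lower members were the 5 named above with CCNE2 and CKS2, against 4.38% of all genes, and the only higher one was CDK8, against 4.3%. CKS2 and CKS1B, small proteins that bind CDKs and help them dock on substrates, had 1 probe set each. CKS2 read 0.47 in the control array and -0.47 in the knockdown array, a difference of -0.95, and CKS1B differed by -0.58.

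**Figure D2:**
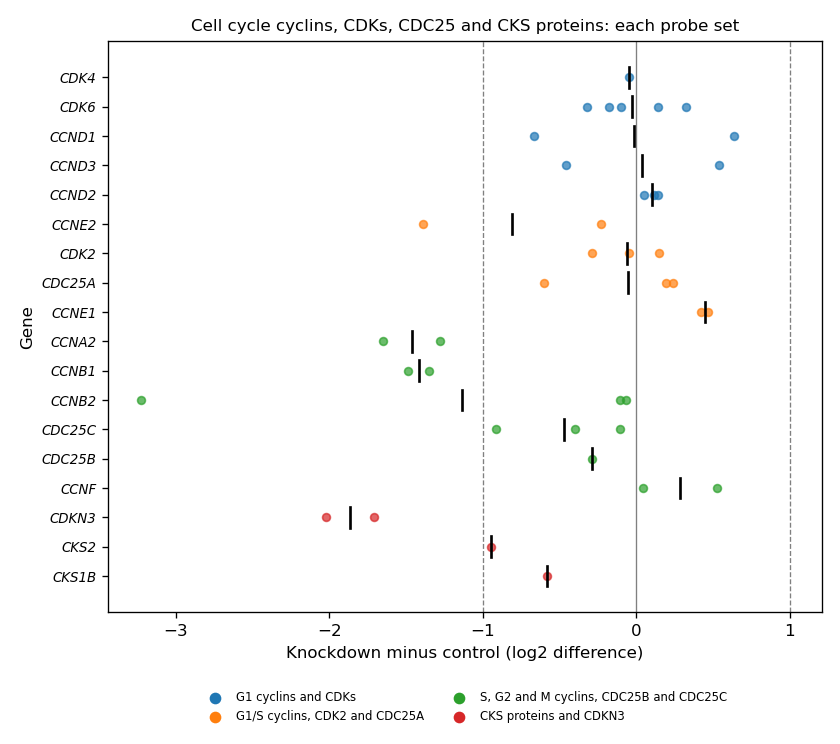
Difference of each probe set (points, log2 difference on the horizontal axis, knockdown minus control) and gene mean (black bar) for 18 cell cycle genes, with dashed lines at 2-fold. Every probe set of CCNA2, CCNB1 and CDKN3 lies beyond 2-fold lower, while CCNB2 and CCNE2 each have 1 probe set past that line and the rest nearer 0.

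Genes of G1 had a median of -0.014 over 5 genes, and each gene mean lay between -0.043 and 0.10. CDK4 and CDK6, the kinases of the D-type cyclins, differed by -0.043 on 1 probe set and by -0.026 ± 0.26 (SD, n = 5 probe sets). The 5 probe sets of CDK6 ran from -0.32 to 0.32. CCND2 lay between 0.054 and 0.15 on its 3 probe sets. CCND1 and CCND3 had means near 0 that hid opposite probe sets. CCND1 read -0.66 on 208711_s_at and 0.64 on 208712_at, for a mean of -0.014 ± 0.92 (SD, n = 2 probe sets). CCND3 read -0.46 on 1562028_at and 0.54 on 201700_at, for a mean of 0.040 ± 0.71 (SD, n = 2 probe sets). Neither has a direction that its probe sets share, although CCND1 and CCND3 drive the same kinases.

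At the G1 to S step the E-type cyclins lay on opposite sides of 0. CCNE1 read 0.42 and 0.47, a mean of 0.45 ± 0.030 (SD, n = 2 probe sets). CCNE2 read -1.39 on 205034_at and -0.23 on 211814_s_at, a mean of -0.81 ± 0.82 (SD, n = 2 probe sets). The ranges of these paralogs did not overlap, and no test of the difference could be made with 1 array a group. CDK2, their kinase, differed by -0.061 ± 0.22 (SD, n = 3 probe sets). CDC25A, the phosphatase that activates CDK2, had 1 probe set at -0.60 and 2 at 0.20 and 0.24, a mean of -0.055 ± 0.47 (SD, n = 3 probe sets). The group median was -0.058 over 4 genes, and none was 2-fold apart. Without probe sets of the _x_at and _s_at kinds CCNE2 rested on 205034_at alone and passed 2-fold lower, and the group median was -0.18. It turned to 0.077 with the median over probe sets of each gene, so the group has no settled direction.

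Over all 18 cell cycle genes, the median was -0.17, with 14 below 0 and 4 at least 2-fold lower. Of their 40 probe sets, 8 (20%) were at least 2-fold lower, from 5 genes, against 2.39% of all probe sets with 1 gene. None of the 40 was 2-fold higher, against 1.48%. Of the 18 genes, 12 are cyclins or CDKs, with a median of -0.035, 8 below 0 and 3 at least 2-fold lower. For the 13 transcriptional genes, which are all cyclins or CDKs, the median was -0.080, with 7 below 0 and 1 at least 2-fold lower. At least 2-fold lower were 1.44% of all genes measured. Of their 42 probe sets, 1 was at least 2-fold lower and 1 at least 2-fold higher, 2.38% each. These counts describe 2 arrays, and probe sets of a gene are not independent.

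The transcriptional cyclins had a median of -0.21 over 7 genes and 5 of them lay below 0. CCNT1, the main cyclin of the elongation factor P-TEFb, was the only one 2-fold lower. It read 0.56 in the control array and -0.56 in the knockdown array, a difference of -1.12 ± 0.59 (SD, n = 2 probe sets) or 2.17-fold. One probe set, 206967_at, read -1.53 and the other, 225493_at, read -0.70, so the call rests on the first. CCNT2, the alternative cyclin of P-TEFb, had all 4 probe sets below 0, from -0.89 to -0.048, with a mean of -0.47 ± 0.37 (SD, n = 4 probe sets). CDK9, the kinase of P-TEFb, differed by -0.085 ± 0.25 (SD, n = 3 probe sets), with probe sets on either side of 0.

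CCNK, the partner of CDK12 and CDK13, read 0.030 and -0.70, a mean of -0.34 ± 0.52 (SD, n = 2 probe sets). CDK12 differed by -0.24 ± 0.26 over 8 probe sets, of which the highest read 0.20 and the lowest -0.60. CDK13 differed by 0.070 ± 0.21 over 7 probe sets. CCNL1 and CCNL2, cyclins linked to splicing, lay at -0.21 ± 0.062 and -0.080 ± 0.061, each over 3 probe sets that were all below 0. CCNH and CDK7, which with MNAT1 form the CDK-activating kinase, differed by 0.37 and 0.015 on 1 probe set each, and MNAT1 by -0.32 on 1.

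CDK8, the kinase of the Mediator module, lay highest of the 42 genes. It read -0.43 in the control array and 0.43 in the knockdown array, a difference of 0.87 ± 0.12 (SD, n = 3 probe sets) or 1.82-fold. Its probe sets read 0.77, 0.83 and 1.0, and the last (1553112_s_at) was the only one of the 107 to be 2-fold higher. That is 0.93%, against 1.48% of all probe sets with 1 gene, and CDK8 ranked 307 from the highest of 17689 genes. CDK19, its paralog in the same module, had probe sets from -0.29 to 0.45 and a mean of 0.10 ± 0.33 (SD, n = 4 probe sets). The ranges of these paralogs did not overlap, but probe sets are not replicate cultures and the difference was not tested. CCNC, the cyclin both use, differed by 0.26 on 1 probe set. MED12 and MED13, the other subunits of that module, differed by -0.11 ± 0.039 over 4 probe sets and by -0.19 ± 0.41 over 3.

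**Figure D3:**
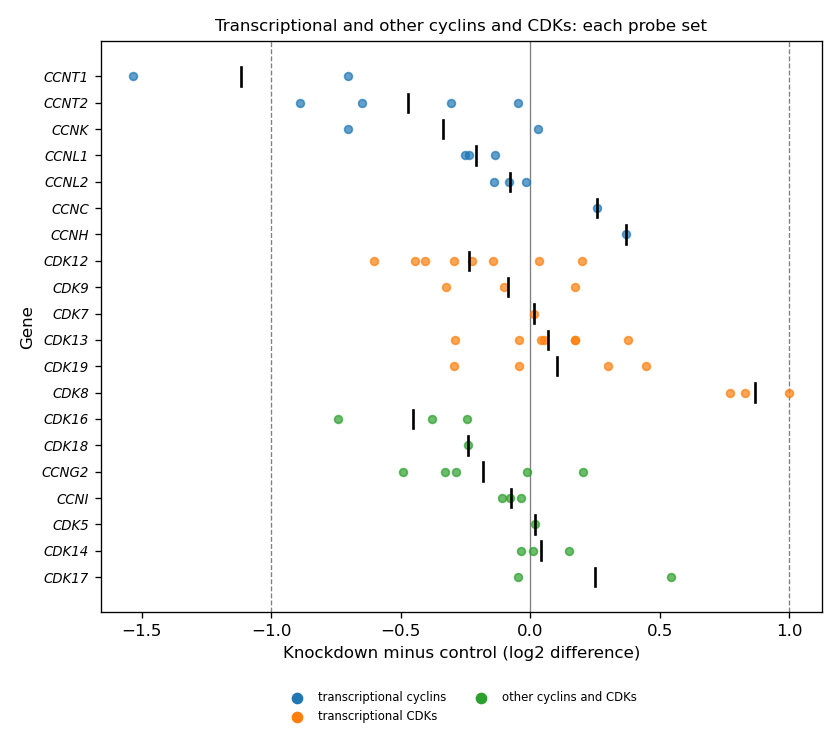
Difference of each probe set (points, log2 difference on the horizontal axis, knockdown minus control) and gene mean (black bar) for 13 transcriptional and 7 other cyclins and CDKs, with dashed lines at 2-fold. CCNT1 is the only gene mean beyond 2-fold lower (-1.12), and the 3 probe sets of CDK8 (0.77 to 1.0) lie to the right of all others.

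The remaining cyclins and CDKs, which act outside both branches, had a median of -0.074 over 7 genes with none 2-fold apart. CDK16, a kinase activated by cyclin Y, had all 3 probe sets below 0, from -0.74 to -0.24, with a mean of -0.45 ± 0.26 (SD, n = 3 probe sets). Its relatives CDK17 and CDK18 differed by 0.25 ± 0.42 over 2 probe sets and by -0.24 on 1, and CDK14, also a partner of cyclin Y, by 0.041 ± 0.096 over 3. CCNG2, an atypical cyclin linked to cell cycle arrest, had 4 of 5 probe sets below 0 and a mean of -0.18 ± 0.28. CCNI lay at -0.074 ± 0.036 over 3 probe sets, and CDK5, best known from neurons, at 0.017 on 1.

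Neither class of inhibitor among the listed genes reached 2-fold. The 3 INK4 genes analysed all lay above 0, where 9494 of all 17689 genes measured also lay. The INK4 median of 0.13 was below the upper quartile of all genes, 0.18. CDKN2A, which encodes p16 and, in another reading frame, ARF, had probe sets at 0.16, 0.22 and 0.47 and a mean of 0.28 ± 0.16 (SD, n = 3 probe sets). CDKN2B, its neighbour that encodes p15, differed by 0.069 on 1 probe set. CDKN2D, which encodes p19, differed by 0.13 ± 0.0069 (SD, n = 2 probe sets). CDKN1B, which encodes p27 and is the only listed KIP gene, differed by 0.15 on 1 probe set, inside the INK4 range of 0.069 to 0.28. Of the other KIP genes, CDKN1C, which encodes p57, differed by 0.011 ± 0.14 (SD, n = 5 probe sets). CDKN1A, which encodes p21, read -0.97 in the control array and 0.97 in the knockdown array on its only probe set, a difference of 1.93. The KIP genes thus ran from 0.011 to 1.93, and CDKN1A alone lay beyond the INK4 range on the higher side.

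**Figure D4:**
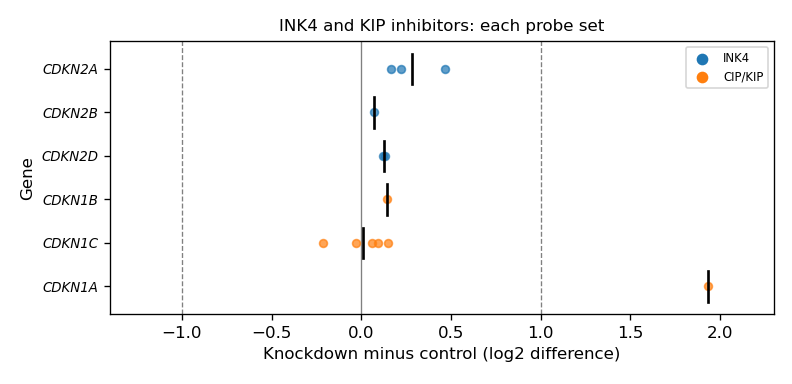
Difference of each probe set (points, log2 difference on the horizontal axis, knockdown minus control) and gene mean (black bar) for 3 INK4 and 3 CIP/KIP inhibitor genes, with dashed lines at 2-fold. CDKN1A (1.93) lies beyond 2-fold higher on its only probe set, and the other 5 gene means lie between 0.011 and 0.28.

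Other genes of the pathway were taken from a list of 55, of which 49 were analysed. Of these, 2 were at least 2-fold lower (4.08%) and CDKN1A was the 1 gene past 2-fold on the higher side. The shares of all genes measured were 1.44% and 1.16%, and the median of the 49 was 0.011. The lower ones were CDC20 (-2.80, 1 probe set), an activator of the ligase that destroys mitotic cyclins, and FOXM1 (-2.11, 1 probe set), a transcription factor of mitotic genes. CDK1, the kinase of CCNB1, differed by -0.55 ± 0.33 (SD, n = 4 probe sets), with 3 probe sets between -0.79 and -0.62 and 1 at -0.072. RB1, the substrate of the G1 kinases, lay at -0.0073 ± 0.24 over 2 probe sets, and E2F1, which it restrains, at -0.30 ± 0.040 over 2.

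The promoters of the lower members are shown because genes of late cell cycle phases often share a CCAAT box, bound by NF-Y, and a cell cycle homology region (CHR), bound by the DREAM and MuvB complexes. RefSeq promoters (GRCh38.p14), from 250 bases before to 50 after a start site, were held for 40 of the 44 listed genes. Motifs were searched on both strands. The CCAAT box was CCAAT, which reads ATTGG on the other strand. The CHR was taken as TTTGAA, which reads TTCAAA on the other strand, or as its variant TTCGAA. Other forms of the CHR were not searched, so a window without a match may still hold one. For E2F sites the letters were TTCCCGC as one form, with TTGGCGC as the other, and no further form was searched. Capitals in the sequences mark matches, which are all to CCAAT or the CHR letter run TTTGAA. None of the windows printed held an E2F match, and no 2 matches within them overlapped. The first set holds the A-type and B-type cyclins, which were at least 2-fold lower. The windows are chr4:121823834-121824133 on the minus strand for CCNA2, chr5:69166900-69167199 on the plus strand for CCNB1 and chr15:59104896-59105195 on the plus strand for CCNB2.
CCNA2: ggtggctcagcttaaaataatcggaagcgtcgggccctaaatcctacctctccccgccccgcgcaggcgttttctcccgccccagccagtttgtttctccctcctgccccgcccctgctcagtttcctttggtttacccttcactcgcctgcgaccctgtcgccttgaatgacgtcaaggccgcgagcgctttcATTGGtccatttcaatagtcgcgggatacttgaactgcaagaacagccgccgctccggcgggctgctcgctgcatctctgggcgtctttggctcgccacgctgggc
CCNB1: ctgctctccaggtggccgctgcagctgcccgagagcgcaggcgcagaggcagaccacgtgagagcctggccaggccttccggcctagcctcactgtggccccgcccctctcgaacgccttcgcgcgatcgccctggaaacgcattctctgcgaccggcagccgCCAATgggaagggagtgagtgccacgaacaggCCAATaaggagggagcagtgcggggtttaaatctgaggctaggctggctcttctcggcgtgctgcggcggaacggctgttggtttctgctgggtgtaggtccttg
CCNB2: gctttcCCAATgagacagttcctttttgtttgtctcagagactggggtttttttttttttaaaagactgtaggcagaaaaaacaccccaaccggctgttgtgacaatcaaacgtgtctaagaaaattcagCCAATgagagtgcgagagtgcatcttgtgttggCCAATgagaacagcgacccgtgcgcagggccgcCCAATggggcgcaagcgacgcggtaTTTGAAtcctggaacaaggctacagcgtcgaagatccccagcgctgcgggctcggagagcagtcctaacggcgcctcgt

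CCNA2 held 1 CCAAT match on the other strand, 56 to 52 bases before the start site. CCNB1 held 2, the nearer at 55 to 51 bases, and no CHR match with these letters. CCNB2 held 4, the nearest at 54 to 50 bases, and a CHR match at 29 to 24 bases. The second set holds CDC25C, CKS1B and CKS2, which lay lower by less than 2-fold. For CDC25C, which has 4 annotated windows, the most downstream one is printed because it holds a CHR match before its start site. Another CDC25C window, with a start site farther upstream, holds a CHR match 44 to 49 bases after the start, so the position depends on the start site taken. The windows are chr5:138331755-138332054 on the minus strand for CDC25C, chr1:154974431-154974730 on the plus strand for CKS1B and chr9:89310945-89311244 on the plus strand for CKS2.
CDC25C: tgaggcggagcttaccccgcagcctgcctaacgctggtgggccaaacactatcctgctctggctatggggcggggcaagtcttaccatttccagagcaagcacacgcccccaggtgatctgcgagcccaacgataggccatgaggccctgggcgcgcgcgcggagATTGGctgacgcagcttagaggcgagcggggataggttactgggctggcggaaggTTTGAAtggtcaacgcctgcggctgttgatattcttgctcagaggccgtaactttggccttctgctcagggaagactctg
CKS1B: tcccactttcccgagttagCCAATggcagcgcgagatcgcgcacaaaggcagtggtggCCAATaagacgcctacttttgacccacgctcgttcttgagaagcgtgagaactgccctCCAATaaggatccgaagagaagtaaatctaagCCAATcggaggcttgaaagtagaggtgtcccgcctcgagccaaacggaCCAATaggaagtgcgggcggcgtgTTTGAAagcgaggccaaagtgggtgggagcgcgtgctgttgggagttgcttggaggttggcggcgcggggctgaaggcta
CKS2: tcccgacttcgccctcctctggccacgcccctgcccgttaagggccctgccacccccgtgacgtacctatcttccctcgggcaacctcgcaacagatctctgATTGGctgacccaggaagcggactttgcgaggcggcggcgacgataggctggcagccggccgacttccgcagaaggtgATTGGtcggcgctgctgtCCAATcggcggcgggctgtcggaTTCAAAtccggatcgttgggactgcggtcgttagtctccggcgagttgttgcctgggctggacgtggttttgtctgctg

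The CHR matches in the printed windows of CDC25C and CKS1B both lay 30 to 25 bases before the start site, and that of CKS2 lay at 29 to 24 on the other strand. The nearest CCAAT match lay at 54 to 50 bases in CKS1B and at 52 to 48 in CKS2. The third set holds CDKN3, the lowest member, and CCNT1, the 2-fold lower transcriptional cyclin. Their windows are chr14:54396757-54397056 on the plus strand and chr12:48716658-48716957 on the minus strand. CCNT1 has 2 annotated windows, and the most upstream one is printed.
CDKN3: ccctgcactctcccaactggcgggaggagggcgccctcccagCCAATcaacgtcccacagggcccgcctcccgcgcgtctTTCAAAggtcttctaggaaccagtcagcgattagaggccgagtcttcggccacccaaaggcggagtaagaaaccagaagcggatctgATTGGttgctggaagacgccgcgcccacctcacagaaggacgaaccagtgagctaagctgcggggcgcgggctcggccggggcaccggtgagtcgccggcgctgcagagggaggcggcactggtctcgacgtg
CCNT1: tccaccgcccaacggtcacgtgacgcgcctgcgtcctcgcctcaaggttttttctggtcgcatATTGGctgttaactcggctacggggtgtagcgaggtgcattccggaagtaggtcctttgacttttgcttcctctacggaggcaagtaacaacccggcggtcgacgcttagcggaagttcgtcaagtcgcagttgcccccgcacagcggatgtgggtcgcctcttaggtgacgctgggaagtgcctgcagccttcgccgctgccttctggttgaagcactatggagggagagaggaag

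CDKN3 held a CHR match on the other strand at 170 to 165 bases before the start site, far upstream of those above, and CCAAT matches at 208 to 204 and 83 to 79 bases. CCNT1 held 1 CCAAT match, at 187 to 183 bases, and no CHR match. All 5 members at least 2-fold lower held a CCAAT match in at least 1 window, but so did 22 of 40 members (55%), 11 of 15 cell cycle members, 6 of 13 transcriptional members and 39.7% of 27305 genes with a promoter in the table. A CHR match was present in 2 of these 5, in 7 of 15 cell cycle members, in 2 of 13 transcriptional members and in 19.5% of all genes. The E2F letters were found in 3 of the 15, in 2 of the 13 and in 11.0% of all genes, and in none of the 5. Within 40 to 20 bases before a start site, bounds chosen after the matches were seen, a CHR match lay in 5 of 40 members (CCNB2, CKS1B, CKS2, CDC25B and CDC25C) and in 1.33% of all genes. The 10 members with both a CHR match in any window and a value on the arrays had a median difference of -0.38, and the 28 without one had -0.035. At least 2-fold lower were 2 of the 10 and 3 of the 28, against 1.44% of all genes measured. The 10 include 4 of the S, G2 and M group and 3 of the CKS and CDKN3 group. This contrast therefore cannot be told apart from the difference between groups given above. The 28 include CCNA2 and CCNB1, and other forms of the CHR were not searched in them. CCNF held both CHR and CCAAT matches and lay at 0.29. A match describes letters in this window, not binding.

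**Figure D5:**
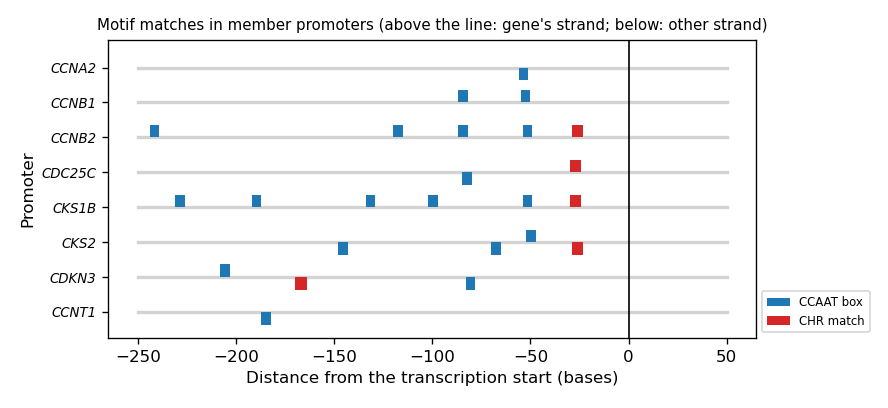
Positions of CCAAT and CHR matches (horizontal axis, bases from the transcription start) in the promoters of 8 members, with matches on the gene's strand above each line and on the other strand below it. CHR matches of CCNB2, CDC25C, CKS1B and CKS2 lie 30 to 24 bases before the start, and that of CDKN3 lies at 170 to 165. CCNA2, CCNB1 and CCNT1 have none with the letters searched, and other forms of the CHR were not searched.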

How the data were processed

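RNA from 2 LNCaP cultures was hybridised to Affymetrix Human Genome U133 Plus 2.0 arrays, from 3 µg of total RNA each per the labels' protocols. The authors deposited values of 44672 probe sets that are read here as log2 although their base is not given in the sources used here, since the submitters' processing notes name RMA (without a version), which gives log2 values. In all 44672 rows the 2 arrays sum to 0 within 2e-06, so levels, background and detection are lost and no dim probe set could be filtered. All folds depend on the assumed log base.

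Differences were knockdown minus control per probe set, averaged per gene over the 34880 probe sets that name 1 gene. Symbols matched RefSeq by Entrez identifier for 34839 of them, with none changed; 1619 probe sets naming several genes, none of them a listed member, were left out, as were 8131 unnamed ones. The annotation and lists were applied with Python 3.11.15, numpy 2.4.6 and pandas 2.3.3, and the averaging was tested on simulated data. No replicate existed, so genes were called by a 2-fold size rule set beside the share of all genes passing it. All listed members are named; probe sets are given for members 2-fold apart or with probe sets at least 1 apart, and pathway genes are named when 2-fold apart, with CDKN1A, CDKN1C, CDK1, RB1 and E2F1 in any case. MNAT1, MED12 and MED13 were added as partners of members after their values were seen, as were the promoters of CKS1B, CKS2 and CDKN3 to those planned. Members and lists were chosen with earlier results of these data known. No protein sequence was used.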

Additional observations from a re-analysis of the deposited data

How the results depend on the processing

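The settings tried were the median over probe sets, dropping _x_at and _s_at probe sets, subtracting the median difference, genes with 2 or more probe sets alone, other size rules, agreement of all probe sets, and group means. Of the 42 gene differences, 1 moved by more than the spread between its probe sets: CDKN2D, 0.10 with the median subtracted. For genes with 1 probe set the spread was the pooled SD of 0.33. A wide spread hides large moves: CCNB2 went from -1.13 to -0.10 and CCND1 from -0.014 to 0.64 within theirs. Mean and median are equal for genes with 1 or 2 probe sets, so that setting could not move them. No 2-fold lower gene changed sign, and none could, since all their probe sets lay below 0. The count of 2-fold lower members was 4 of 42 with medians over probe sets, where CCNB2 was lost, against 1.48% of all genes. Without _x_at and _s_at probe sets it was 6 of 32, with CCNE2 gained at -1.39, against 1.52% of the 14791 genes left. At 3-fold, 1 member and 1 cell cycle member (CDKN3) and 0 transcriptional members were lower, against 0.458% of all genes. At 1.5-fold, 1 member was higher, the transcriptional CDK8, against 4.3% of all genes. The median of the S, G2 and M group was -0.34 with medians over probe sets, where CCNB2 falls to -0.10, and -1.13 over the 5 genes left without _x_at and _s_at probe sets or with 2 or more probe sets. The CKS and CDKN3 group then rested on CDKN3 alone, at -1.71 and -1.86. The G1/S median turned from -0.058 to 0.077 with medians over probe sets, and the G1 median of -0.014 turned to 0.040 without _x_at and _s_at probe sets. With 2 or more probe sets alone, the transcriptional cyclin median was -0.34 over 5 genes and the cell cycle median -0.058 over 14; the cell cycle mean was -0.46 over 18. No value could be given for 10 genes without _x_at and _s_at probe sets, or for the 11 with 1 probe set when 2 or more were required. No paired analysis was possible because each group has 1 array.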
